A study of Canis lupus familiaris with 20 samples.

Results

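The genes described here encode the proteins of the cytosolic ribosome and the factors that work with it. They were picked by a rule on names, though earlier results of these data were known when it was set. The rule took RPL or RPS followed by a number with the S6 kinases left out, RPLP0 to RPLP2, and RPSA. It also took any name that begins with EIF or EEF. The array has 42034 probes, which stand for 9971 distinct gene symbols where they could be named, and 77 gene names with 93 probes met this rule. Ribosomal proteins made up 32 names with 37 probes and factors 45 names with 56 probes. Of these, 83 passed the filter on dim probes and 82 probes of 69 genes had a usable spot in each dog, 33 for ribosomal proteins and 49 for factors, and these were tested among 16008 probes in all. Counts over the tested members therefore leave out the dimmest members.

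The measurements are of total RNA from muscle of 10 dogs that were 2 years old. By disease state, 4 dogs were normal, 4 were affected by DMD (Duchenne muscular dystrophy, in which dystrophin is missing from the muscle fibre) and 2 were DMD escapers, a term used for dystrophic dogs with mild disease. The labels name neither the muscle nor the breed nor a genotype, and they speak of no transgene, treatment or pooling. Every dog was hybridised on 2 arrays with dyes exchanged, both times against 1 common reference RNA from muscle of a normal individual. All values are log2 ratios of dog over reference, averaged over the 2 arrays of a dog, so the dog is the replicate and a level of 0 means the level of the reference. A difference between groups is a difference of these ratios, in which the reference cancels. The affected and the escaper group are both set against the same 4 normal dogs, and each slide carried 2 dogs of 1 group, so that escaper group and slide cannot be told apart.

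Cytosolic ribosomes join a small (40S) and a large (60S) subunit, each built of ribosomal RNA and many proteins that are made in fixed proportion. Initiation factors load the first transfer RNA and the messenger RNA onto the small subunit, elongation factors drive the ribosome along the message, and growth signals through mTOR act on both. In skeletal muscle this machinery is known to set the capacity for protein synthesis, and it expands when fibres grow or regenerate.

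A few probe sequences show what the measurements rest on, and their positions are those of the array files, whose genome build is not given in the sources used here. Each probe is 60 bases long. The probe of RPL22L1, which had the largest differences among ribosomal proteins, covers chr34:38305934-38306160 on the minus strand, a span wider than the probe. The RPS28 probe at chr20:55904311-55904370 on the plus strand has a GC content of 68.3% and was saturated on 18 of 20 arrays. The RPS9 probe at chr1:106065284-106065457 is annotated on the minus strand, opposite to the other RPS9 probe. Both EIF6 probes shown bear the same gene name but lie at chr24:27234149-27234208 and chr28:32309202-32309261 on the minus strand. The EIF3J probe at chr30:14223872-14223931 on the plus strand belongs to the factor with the lowest escaper values against normal dogs.
RPL22L1: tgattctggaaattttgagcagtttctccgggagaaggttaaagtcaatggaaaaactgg
RPS28: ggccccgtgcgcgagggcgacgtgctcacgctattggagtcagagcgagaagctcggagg
RPS9: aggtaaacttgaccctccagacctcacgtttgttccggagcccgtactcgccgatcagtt
EIF6 on chromosome 24: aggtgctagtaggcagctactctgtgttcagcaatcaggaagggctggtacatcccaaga
EIF6 on chromosome 28: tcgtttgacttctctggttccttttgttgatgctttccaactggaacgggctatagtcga
EIF3J: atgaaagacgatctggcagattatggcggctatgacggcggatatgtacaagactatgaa

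Array facts that bear on these genes are few. On an array, 30.5% to 60.2% of all probes and 78 to 87 of the 93 member probes were well above background, and 9 to 16 members were saturated in a channel. Across members, the arrays of the same dog had r from 0.60 (affected 4) to 0.91 (escaper 2), where genes are not independent replicates. Of 10 listed fibre markers, 6 had a probe and 5 were tested, with a median ratio of 0.21 to 0.49 in normal dogs. As ratios to a muscle reference, these values compare the dogs and cannot check the muscle label. Affected 1 (−0.88) and escaper 2 (−2.03) stood apart by these markers, while affected 2 to 4 lay between 0.00 and 0.70 and escaper 1 at 0.66. Fibroblast and matrix markers (9 tested) were lowest in affected 1 (−1.78) and highest in escaper 2 (2.47), against −1.32 to −0.75 in normal dogs. Macrophage markers (6 tested) were also highest in escaper 2 (1.37 against −1.22 to −0.76 in normal dogs). Markers of regenerating fibres (4 tested) ran from −2.87, in affected 1, up to 0.56 in affected dogs. They were at −0.12 and 1.48 in the escapers and at −3.21 to −3.08 in normal dogs. Their median difference was 2.46 in affected and 3.57 in escaper dogs, so leaving out affected 1 or escaper 2 does not remove this shift. The part of these shifts in the results was not tested. Most class and list medians and named differences are also given without affected 1 or escaper 2. In whole tissue, fewer cells of a type and less RNA per cell cannot be told apart.

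Ribosomal protein RNAs were slightly more abundant in affected than in normal muscle at most probes, but no single one passed the test. Of 33 tested probes, 28 had a positive difference of affected minus normal dogs, where 53.0% of all probes did. The median difference was 0.20 on the log2 scale, and it was 0.02 over all probes. None passed at an adjusted p of 0.05 by limma, a threshold that 0.0187% of all probes met, and the smallest adjusted p among the members was 0.24. At an unadjusted p under 0.05, 2 ribosomal probes, of RPL22L1 and RPS19BP1, were higher (5.06% of all probes were) and 0 lower (7.38%). RPS19BP1 is counted in the class by its name throughout but is no ribosomal protein, and the 0.24 was its value. The smallest limma adjusted p was 0.37 among 60S probes and 0.41 among 40S probes. At 1 probe the 4 affected dogs were higher than every normal dog, and at 0 probes lower, where 5.28% and 7.42% of all probes did so. These shares are near or under those of all probes, so the single-probe counts add nothing to the small shift.

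The per-dog medians show the same shift more plainly once saturated probes are set aside. Over the 21 ribosomal probes that were saturated on no array, the median ratio was −0.48, −0.38, −0.38 and −0.39 in normal 1 to 4. It was 0.05, −0.16, −0.08 and −0.21 in affected 1 to 4, and −0.31 and 0.24 in escaper 1 and 2. Each affected dog and each escaper thus lay above every normal dog, escaper 1 by the least. Over all 33 probes the groups overlapped, with −0.32 to −0.11 in normal, −0.14 to 0.01 in affected dogs, −0.17 in escaper 1 and 0.35 in escaper 2. Of the 21 unsaturated probes, 19 had a positive affected difference, with a median of 0.30. Without affected 1 that median was 0.25 with 18 positive, so it did not rest on that dog.

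**Figure D1:**
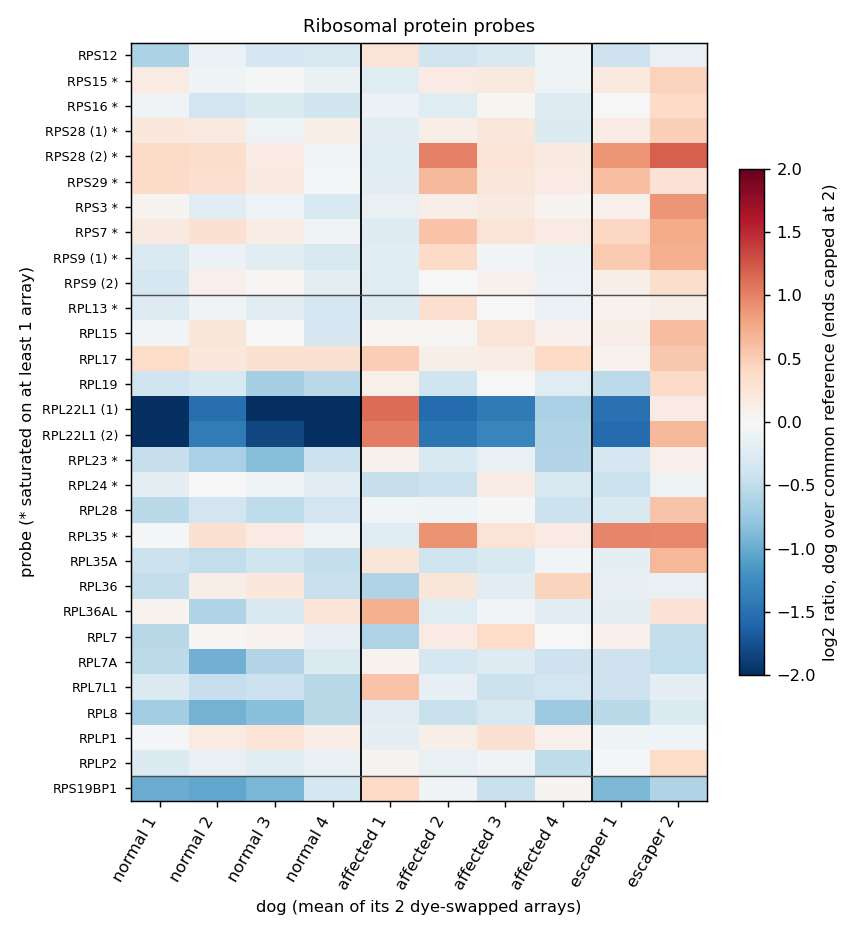
Log2 ratio of dog over common reference for 30 of the 33 tested ribosomal protein probes (rows, 40S above 60S, RPS19BP1 last) in 10 dogs (columns, each the mean of 2 arrays); colours end at 2 in either direction and a star marks probes saturated on at least 1 array. Normal dogs are bluer than affected dogs at unstarred probes, both RPL22L1 rows are the darkest, and escaper 2 is red at most rows.

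Small-subunit proteins were measured at 13 probes of 10 genes. In affected against normal dogs, 11 of 13 differences were positive with a median of 0.14, or 12 with a median of 0.19 without affected 1. RPS12, a protein of the 40S beak, was at −0.63, −0.11, −0.34 and −0.32 in normal 1 to 4 and at 0.25, −0.39, −0.30 and −0.11 in affected 1 to 4. It was at −0.42 and −0.15 in the escapers. Affected 1 alone lay clearly above the normal dogs. The affected difference was 0.21 (SE 0.18, limma adjusted p = 0.64), and 0.08 without affected 1. RPS12, RPS15, RPS16, RPS28, RPS29, RPS3, RPS7 and RPS9 had affected differences between −0.14 and 0.22 over their probes, with overlap in each.

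Large-subunit proteins were measured at 19 probes of 18 genes, and 16 of them had a positive affected difference, with a median of 0.22, or 15 with a median of 0.25 without affected 1. RPL22L1, a paralogue of RPL22 that can take its place in the ribosome, led the class at both of its probes. At the probe printed above it stood at −2.06, −1.51, −2.52 and −2.14 in normal 1 to 4, and at 1.12, −1.54, −1.41 and −0.65 in affected 1 to 4. Escaper 1 was at −1.49 and escaper 2 at 0.16. Affected 1 was far above every other dog, affected 2 and 3 lay at or just past the top of the normal range, and only affected 4 and escaper 2 stood clearly above it besides.

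The RPL22L1 difference at that probe was 1.44 for affected (2.71-fold, SE 0.58, limma adjusted p = 0.37) and 1.39 for escaper against normal dogs. The second RPL22L1 probe, at chr34:38304356-38304415, gave 1.25 (2.38-fold, SE 0.59, limma adjusted p = 0.42) and 1.39, so both probes of the gene gave like values. Without affected 1 the affected differences were 0.86 and 0.71. Without escaper 2 the escaper differences were 0.57 and 0.29, and escaper 1 stood at −1.54 at the second probe, within the normal range of −2.06 to −1.41. All 4 normal dogs lay far below the reference, which is itself labelled as normal muscle.

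Among other large-subunit proteins, RPL8 (0.33, SE 0.15, limma adjusted p = 0.41), RPL7A (0.35), RPL23 (0.36), RPL19 (0.34), RPL7L1 (0.33), RPL35A (0.32) and RPL28 (0.30) had affected differences of like size. Without affected 1 these were 0.26, 0.25, 0.25, 0.26, 0.11, 0.20 and 0.27 in the same order. The RPL19 probe is the reverse complement of coding sequence, so its value need not be that of the messenger RNA. RPL8 and RPL23 contact the ribosomal RNA of the 60S body. RPL8 was at −0.69, −0.95, −0.83 and −0.56 in normal and −0.22, −0.44, −0.31 and −0.72 in affected dogs, with affected 4 inside the normal range. RPL35A, whose mutation is known in Diamond-Blackfan anaemia, was tight in normal dogs at −0.44, −0.49, −0.40 and −0.48. In affected dogs it was at 0.25, −0.40, −0.30 and −0.06, and in the escapers at −0.19 and 0.66. Affected 2 was level with the top of the normal dogs and the rest lay above.

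Differences at the probes of the stalk proteins RPLP1 and RPLP2, which recruit elongation factors to the ribosome, were −0.05 and 0.02 between affected and normal dogs. The RPLP1 probe is the reverse complement of coding sequence. RPL24 (−0.14) had the most negative affected difference of the large subunit, and RPL17 stood at −0.00 with every dog above the reference (0.08 to 0.54). These values lie within the spread between dogs.

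RPS19BP1 meets the name rule but is no ribosomal protein: its product binds RPS19 and is known as a partner of the deacetylase SIRT1. It was at −1.0, −1.05, −0.92 and −0.35 in normal 1 to 4 and at 0.40, −0.06, −0.45 and 0.05 in affected 1 to 4. The escapers were at −0.89 and −0.60. Normal 4 overlapped affected 3, and the escapers stayed with the normal dogs. The affected difference was 0.81 (1.75-fold, SE 0.22, limma adjusted p = 0.24), the smallest adjusted p of any member in that comparison. Escapers differed from normal dogs by 0.08 and from affected dogs by −0.73 (SE 0.27, adjusted p = 0.80), with both escapers below all affected dogs. The affected difference passed (limma adjusted p = 0.028) in a fit of all arrays with the dog as a random block and a dye term. In that fit 314 of 14633 probes passed. Without affected 1 the difference of the main fit was 0.67.

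**Figure D2:**
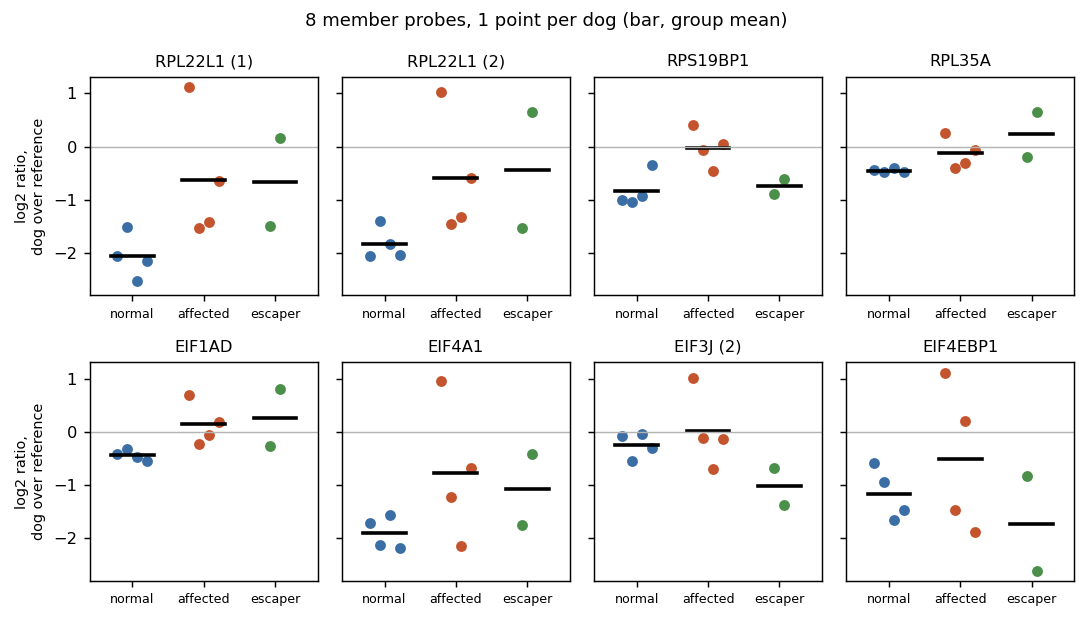
Log2 ratio of dog over common reference (vertical axis) for 8 member probes in normal, affected and escaper dogs; points are dogs (means of 2 arrays) and bars group means. RPS19BP1 is highest in affected dogs, EIF1AD is above the normal dogs in both other groups, and affected 1 is the top affected point for RPL22L1, EIF4A1, EIF3J and EIF4EBP1.

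Many of the brightest members were saturated, so their ratios are only partly measured. Of the 33 tested ribosomal probes, 12 were saturated in at least 1 channel of an array: RPS28 at its second probe in both channels on 18 of 20 arrays, RPS29 on 12, RPS7 on 11 and RPL35 on 10. In a dog, between 6 and 54 probes were saturated in both channels on both arrays. In escaper 1 and escaper 2 they were 10 and 6 probes with 0 members among them, so member ratios there were at least partly measured. Before loess normalisation the median ratio of these probes was from −0.01 to 0.01. After loess it became 0.38, 0.37, 0.18 and −0.05 in normal 1 to 4, −0.25, 0.98, 0.27 and 0.18 in affected 1 to 4, and 1.0 and 1.21 in the escapers. These medians differ between groups by 0.08 for affected minus normal, 0.89 for escaper minus normal and 0.81 for escaper minus affected dogs.

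Some members sat at or near that value. For RPS28 the values are those of its second probe (chr20:55904534-55904593), not of the probe printed above. RPS28, a small protein of the 40S head, was at 0.38, 0.36, 0.17 and −0.05 in normal, −0.25, 1.01, 0.27 and 0.18 in affected and 0.89 and 1.2 in escaper dogs. Its escaper difference was 0.83 (SE 0.30, limma adjusted p = 0.22). RPL35, next to the nascent chain exit, was at −0.04, 0.31, 0.17 and −0.10 in normal, −0.24, 0.90, 0.28 and 0.16 in affected and 0.97 and 0.96 in escaper dogs, an escaper difference of 0.88 (SE 0.27, adjusted p = 0.20). In both genes escaper 1 and escaper 2 lay above all normal dogs, as did affected 2. RPS28 followed the saturated probes closely in every dog, and RPL35 did so less in normal 1 and escaper 2. With each array centred on its median in place of loess, the RPS28 difference was 0.02 and that of RPL35 −0.36.

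**Figure D3:**
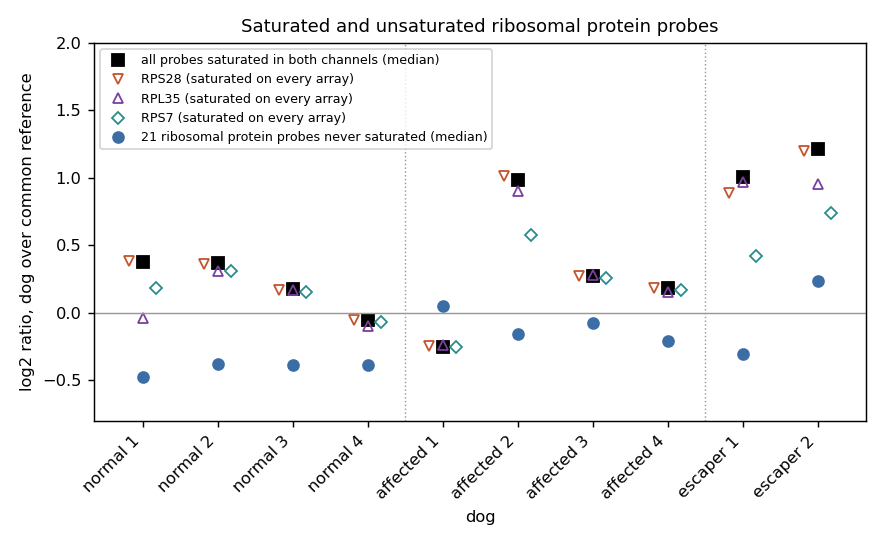
Log2 ratio of dog over common reference in each dog for the median of all probes saturated in both channels (squares), 3 ribosomal protein probes saturated on every array (open symbols) and the median of the 21 ribosomal probes never saturated (circles). RPS28, at its second probe, and RPL35 follow the squares from −0.25 in affected 1 to about 1 in affected 2 and the escapers, while the circles do not.

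Escaper dogs had higher ribosomal protein ratios than normal dogs at most probes, more in escaper 2 than in escaper 1. Positive escaper differences were found at 29 of 33 probes (49.8% of all probes were positive), with a median of 0.35 against −0.00 over all probes. No member passed by limma (0% of all probes did), and the smallest adjusted p was 0.19. At an unadjusted p under 0.05, 8 ribosomal probes were higher (9.67% of all probes) and 0 lower (8.78%). They included probes of RPS3, RPS9, RPS16, RPS28, RPL28, RPL35 and RPL35A. Both escapers lay above all normal dogs at 17 probes (14.5% of all probes) and below them at 1, RPLP1 (15.7%). Of the 12 saturated probes, 9 were among those 17 and 5 among those 8. The never saturated probes had 18 of 21 positive, a median of 0.34, 8 above and 3 with an unadjusted p under 0.05.

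The size of the escaper shift depended on the dog and on the normalisation. Leaving out escaper 2 brought the median over 33 probes to 0.21 with 24 positive, and over the 21 unsaturated probes to 0.17 with 13 positive. Leaving out escaper 1 brought it to 0.53, when 8 ribosomal probes and 3920 of all probes passed and the lone escaper was assumed to vary like the other groups. Median centring of each array in place of loess turned it to −0.19 with 10 of 33 positive, and to −0.04 over the unsaturated probes, while the median of all probes moved to −0.17. The affected median was 0.06 over all ribosomal probes and 0.21 over the unsaturated ones under that scaling, with 20 of 21 of the latter positive. The sign of the escaper median thus changed with this scaling. Relative to the shift of all probes, the 33 probes were level and the unsaturated ones lay above.

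Member by member, RPS9 had the smallest adjusted p in escapers. At its plus-strand probe, saturated on 19 arrays, it was at −0.29, −0.11, −0.22 and −0.30 in normal, −0.22, 0.38, −0.05 and −0.14 in affected and 0.53 and 0.72 in escaper dogs. Both escapers were above all 8 other dogs. Probes saturated in both channels differed by 0.89 between escaper and normal dogs after loess, with 0 members among them in either escaper. The escaper difference of RPS9 was 0.85 (SE 0.18, limma adjusted p = 0.19), and it was −0.37 with median centring. It passed with the slide as a random block (adjusted p = 0.042), when 522 of all probes passed in place of 0. The minus-strand probe printed above gave 0.34 (SE 0.18) and 0.22 without escaper 2, with both escapers above all other dogs. The sequence of that probe is the reverse complement of coding sequence, so its value need not be that of the messenger RNA. Probes on opposite strands are not 2 measures of the same RNA.

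RPS3, which lines the entry of the messenger RNA channel and was saturated on every array, differed by 0.63 in escapers (SE 0.22, limma adjusted p = 0.21), and by 0.25 without escaper 2. RPS16 differed by 0.47, and by 0.27 without escaper 2. At unsaturated probes, RPL35A differed by 0.68 (SE 0.25, adjusted p = 0.22) and RPL28 by 0.59 (SE 0.23, adjusted p = 0.24). RPL28 was at −0.54, −0.38, −0.51 and −0.39 in normal, −0.05, −0.08, −0.04 and −0.43 in affected and −0.31 and 0.57 in escaper dogs. As in RPL35A, escaper 1 lay just above the normal dogs and escaper 2 far above them. Without escaper 2, RPL35A differed by 0.26 and RPL28 by 0.15.

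The probe named RPLP1 was the exception, with −0.02, 0.16, 0.26 and 0.13 in normal and −0.08 and −0.09 in escaper dogs. The escaper difference of this probe was −0.22 (SE 0.17, limma adjusted p = 0.49), while the stalk partner RPLP2 had 0.37 with both escapers above the normal dogs. RPLP1 and RPL19 had 1 probe each. The sequence of both probes is the reverse complement of protein-coding sequence, so their values need not be those of the messenger RNA. Escapers and affected dogs differed little over the class: 23 of 33 probes were positive with a median of 0.12 (49.0% and −0.01 over all probes). None passed by limma (0% of all probes). At an unadjusted p under 0.05, 3 were higher (2.95%), the saturated probes of RPL35, RPS28 and RPS9, and 1 lower (2.26%), RPS19BP1. Escapers lay above all affected dogs at 3 probes (3.69%), of RPL35 and RPS9, and below at 2 (4.15%), RPL7A and RPS19BP1. Over the 21 unsaturated probes the median was 0.01.

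Translation factors behaved less evenly than ribosomal proteins, and their shift in affected dogs was lost without 1 animal. Of 49 tested probes, 38 had a positive affected difference with a median of 0.17. None passed by limma. At an unadjusted p under 0.05, 3 were higher, of EIF1AD and EIF3D (5.06% of all probes were), and 0 lower (7.38%). Of the 49, 2 had the affected dogs above all normal dogs (EIF1AD and EIF4A3; 5.28% of all probes) and 1 below (EIF4EBP2; 7.42%). These counts are near or under the share of all probes. The median ratio was −0.14, −0.54, −0.29 and −0.21 in normal 1 to 4 and 0.31, −0.30, −0.28 and −0.38 in affected 1 to 4. Affected 1 alone left the normal range, and it lay above all normal dogs at 36 of the 49 probes (73.5%, against 37.6% of all probes). Without affected 1 the median affected difference was −0.00 with 22 of 49 positive, and without normal 2 it was 0.09.

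In escapers the factors had 22 of 49 positive differences and a median of −0.07, with medians of −0.20 in escaper 1 and −0.61 in escaper 2. Both escapers lay above all normal dogs at 5 probes, of EIF1AD, EIF3D, EIF4A3 and EIF4G2 (14.5% of all probes), and below at 5, of EIF2C1, EIF2S1, EIF3J, EIF5 and EIF5B (15.7%). Both shares are below those of all probes. By limma, 0 probes passed and 0 reached an unadjusted p under 0.05 in either direction. Escaper 2 by itself was below all normal dogs at 24 probes (49.0%, against 39.0% of all probes). Without escaper 2 the median was 0.06 with 28 positive, without normal 2 it was −0.16, and without escaper 1 it was −0.31, with 3 factors and 24.5% of all probes past the threshold. Against affected dogs the median was −0.27 with 10 of 49 positive (−0.01 and 49.0% over all probes), and it was −0.06 without affected 1. EIF3J at its second probe was the 1 factor probe (2.04%) that was lower at an unadjusted p under 0.05, near the 2.26% of all probes.

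**Figure D4:**
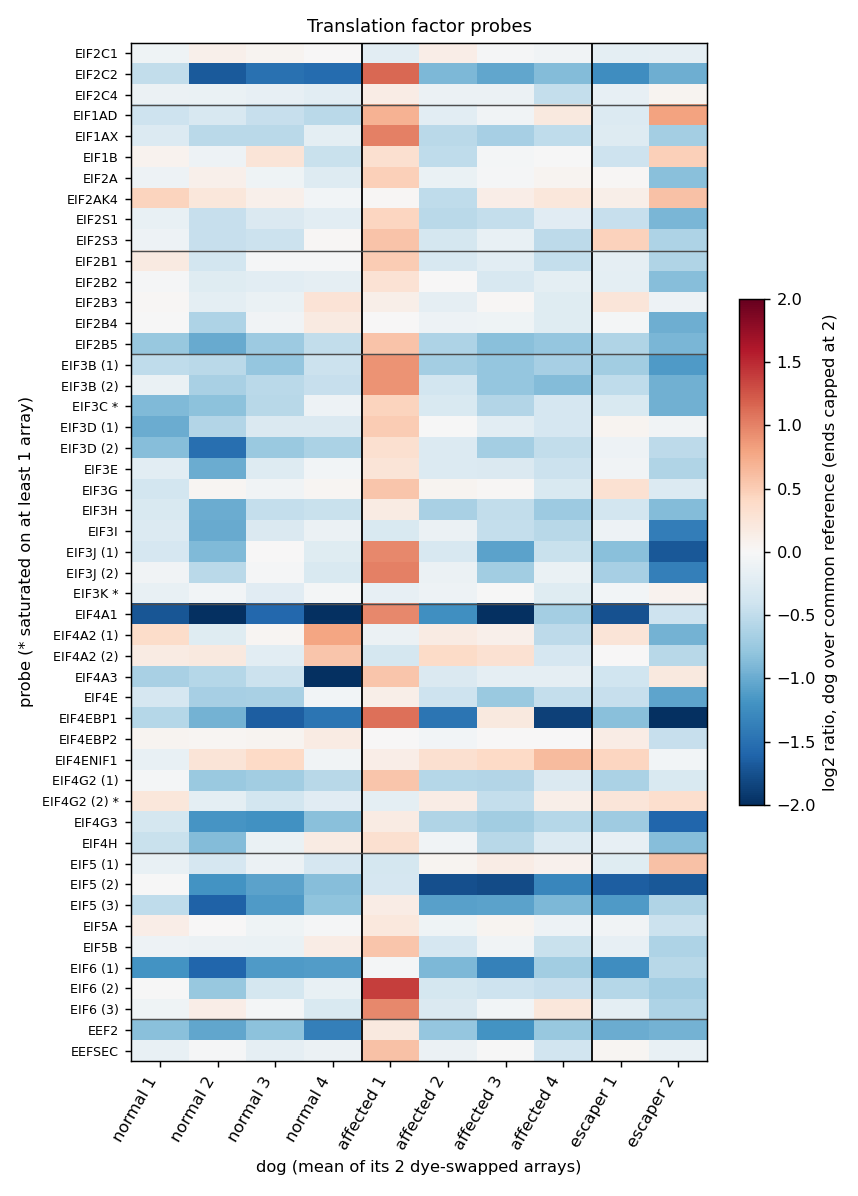
Log2 ratio of dog over common reference for the 49 tested translation factor probes (rows, by factor family) in 10 dogs (columns, each the mean of 2 arrays), with colours ending at 2 in either direction and a star for probes saturated on at least 1 array. Affected 1 is red at most rows and escaper 2 blue at most, with medians of 0.31 and −0.61.

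The factors that bring the initiator transfer RNA were measured at 7 probes of eIF1 and eIF2 names. EIF1AD, which resembles the start-site factor eIF1A, was at −0.41, −0.32, −0.46 and −0.54 in normal 1 to 4 and at 0.69, −0.22, −0.06 and 0.19 in affected 1 to 4. The escapers were at −0.27 and 0.81. Every affected dog and both escapers lay above every normal dog. In affected dogs the difference was 0.58 (SE 0.26, limma adjusted p = 0.40) and 0.40 without affected 1. The escaper difference was 0.70 (SE 0.31, adjusted p = 0.27) and 0.16 without escaper 2.

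EIF2S1, the alpha subunit of eIF2 whose phosphorylation lowers initiation under stress, was at −0.14, −0.46, −0.30 and −0.21 in normal and 0.43, −0.55, −0.47 and −0.23 in affected dogs. In the escapers it was at −0.47 and −0.91, below all normal dogs, for escaper 1 only just. Its affected difference was 0.07 (−0.14 without affected 1) and its escaper difference −0.41 (SE 0.27, limma adjusted p = 0.42), or −0.19 without escaper 2. EIF2AK4, the GCN2 kinase that phosphorylates it when amino acids are short, differed by −0.21 in affected and 0.18 in escaper dogs. EIF2A, EIF2S3, EIF1AX and EIF1B had affected differences from −0.01 to 0.21, with overlap in each.

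The exchange factor eIF2B, which recharges eIF2 with GTP, was measured at all 5 of its subunits, EIF2B1 to EIF2B5. Affected differences ran from −0.07 to 0.33 with a median of 0.03, and escaper differences from −0.38 to 0.07 with a median of −0.33. Without affected 1 the former median was −0.01, and without escaper 2 the latter was 0.09. In escaper 2 the median of the subunits was −0.86, below −0.37 to −0.01 in normal dogs, while escaper 1 was at −0.19. Without escaper 2 the EIF2B2 difference moved from −0.36 to −0.04.

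The scaffold eIF3, which joins the small subunit to the messenger RNA, was measured at 12 probes of 9 subunits. Affected differences were positive at 11 of 12 with a median of 0.18, but at 6 of 12 with a median of 0.01 without affected 1. In that dog eIF3 had a median of 0.47 against −0.54 to −0.27 in affected 2 to 4 and −0.73 to −0.27 in normal dogs. EIF3D, the subunit that can itself bind caps, had the largest at both its probes, 0.53 (SE 0.22, limma adjusted p = 0.38) and 0.65 (SE 0.26, adjusted p = 0.36), or 0.35 and 0.45 without affected 1. At the first it was at −1.0, −0.58, −0.29 and −0.29 in normal, 0.50, −0.01, −0.21 and −0.34 in affected and 0.06 and −0.07 in escaper dogs. Affected 4 overlapped the normal dogs, and both escapers lay above them at both probes, with differences of 0.53 and 0.62.

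EIF3J, a loosely bound subunit at the decoding centre, went the other way in escapers. At the first probe, printed above, it was at −0.34, −0.88, 0.00 and −0.24 in normal, 0.97, −0.32, −1.07 and −0.45 in affected and −0.84 and −1.70 in escaper dogs. At the second it was at −0.08, −0.54, −0.03 and −0.30 in normal, 1.01, −0.12, −0.70 and −0.14 in affected and −0.67 and −1.36 in escaper dogs. Escaper 1 lay at the lower edge of the normal dogs or just past it and escaper 2 well below, while affected 1 was the highest dog at both probes. Escaper differences were −0.90 (SE 0.49, limma adjusted p = 0.35) and −0.78 (SE 0.41, adjusted p = 0.32), and without escaper 2 they were −0.47 and −0.43. EIF3B, EIF3I and EIF3H had escaper differences from −0.34 to −0.07, and EIF3G and EIF3K of 0.11 and 0.12.

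The cap-binding group eIF4 was measured at 12 probes of 10 genes and held the largest affected differences among factors. EIF4A1, the helicase that unwinds the leader of a message, was at −1.71, −2.13, −1.57 and −2.18 in normal, 0.96, −1.22, −2.13 and −0.68 in affected and −1.74 and −0.41 in escaper dogs. Affected 3 and escaper 1 lay among the normal dogs and the other dystrophic dogs above them. Its affected difference was 1.13 (2.18-fold, SE 0.58, limma adjusted p = 0.46), and 0.55 without affected 1. Its escaper difference was 0.82, and 0.16 without escaper 2. The other initiation helicase, EIF4A2, differed by −0.34 and −0.18 in affected and −0.59 and −0.44 in escaper dogs at its 2 probes, the latter becoming 0.01 and −0.17 without escaper 2.

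EIF4A3, a core protein of the exon junction complex with little part in initiation, was at −0.64, −0.58, −0.43 and −2.99 in normal, 0.55, −0.30, −0.18 and −0.18 in affected and −0.40 and 0.19 in escaper dogs. No dystrophic dog came down to the highest normal dog, and normal 4 was far below every other dog. Affected dogs differed by 1.14 (SE 0.52, limma adjusted p = 0.41) but 0.53 without normal 4. The escaper difference went from 1.06 to 0.45 without that dog.

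EIF4E, the cap-binding protein, differed by 0.05 in affected (−0.12 without affected 1) and −0.33 in escaper dogs (−0.03 without escaper 2). EIF4EBP1, which holds eIF4E inactive until mTOR phosphorylates it, was at −0.57, −0.94, −1.65 and −1.46 in normal, 1.11, −1.46, 0.20 and −1.87 in affected and −0.83 and −2.61 in escaper dogs. Affected dogs lay on both sides of the normal range, escaper 1 within it and escaper 2 below it. The differences of 0.65 (SE 0.66, limma adjusted p = 0.70) and −0.56 (SE 0.80, adjusted p = 0.73) were smaller than their errors, and without escaper 2 the latter was 0.32. EIF4EBP2, its relative, was at 0.06, 0.04, 0.05 and 0.16 in normal and 0.01, −0.05, 0.01 and 0.01 in affected dogs. Those groups did not overlap, yet the difference was −0.09 (SE 0.14). EIF4G3, EIF4H, EIF4ENIF1 and EIF4G2 had affected differences from 0.04 to 0.46, with overlap.

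Factors of late initiation carried annotation problems. EIF5, which makes eIF2 hydrolyse its GTP, has 3 tested probes on chromosome 8 that did not agree: their affected differences were 0.23, −0.51 and 0.29 and their escaper differences 0.41, −0.89 and 0.15. The EIF5 probe with −0.89 (chr8:74152765-74152824, plus strand) had both escapers, at −1.64 and −1.70, below all normal dogs. No direction can be given for the gene from these. Of the 3 tested probes named EIF6, those on chromosome 28 are described in the array files as subunit A of eIF3, and only the chromosome 24 probe as eIF6, the factor that keeps the subunits apart. That probe differed by 0.51 in affected (SE 0.28, limma adjusted p = 0.48) and 0.36 in escaper dogs. The chromosome 28 probes differed by 0.36 and 0.28 in affected and by −0.30 and −0.33 in escaper dogs, opposite in sign for escapers, but without escaper 2 the chromosome 24 probe was at 0.02.

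EIF5A, which helps ribosomes past difficult peptide bonds, differed by 0.02 in affected and −0.25 in escaper dogs, and EIF5B, which joins the subunits, by −0.03 and −0.34. For EIF5B both escapers (−0.16 and −0.61) lay below all normal dogs (−0.13 to 0.15). EIF5A2 was well above background on 0 of 20 arrays at both its probes.

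Of the elongation factors, EEF2, which moves the ribosome by a codon, was at −0.84, −1.04, −0.82 and −1.37 in normal, 0.20, −0.77, −1.19 and −0.76 in affected and −0.98 and −0.95 in escaper dogs. Affected 1 stood alone above the rest. It differed by 0.39 in affected dogs (SE 0.27, limma adjusted p = 0.58), 0.11 without affected 1, and by 0.05 in escapers. EEFSEC, which delivers selenocysteine, differed by 0.14 and 0.06. EEF1D, an exchange factor of elongation, was saturated on 20 of 20 arrays, 15 of them in both channels, and had no usable spot in escaper 1. EEF1E1 was well above background on 0 arrays.

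EIF2C1, EIF2C2 and EIF2C4 carry old names of Argonaute proteins, which act in RNA silencing. EIF2C2 differed by 0.89 in affected dogs (SE 0.48, limma adjusted p = 0.48), and by 0.37 without affected 1, which stood at 1.16. EIF2C1 differed by −0.06 and EIF2C4 by 0.02.

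**Figure D5:**
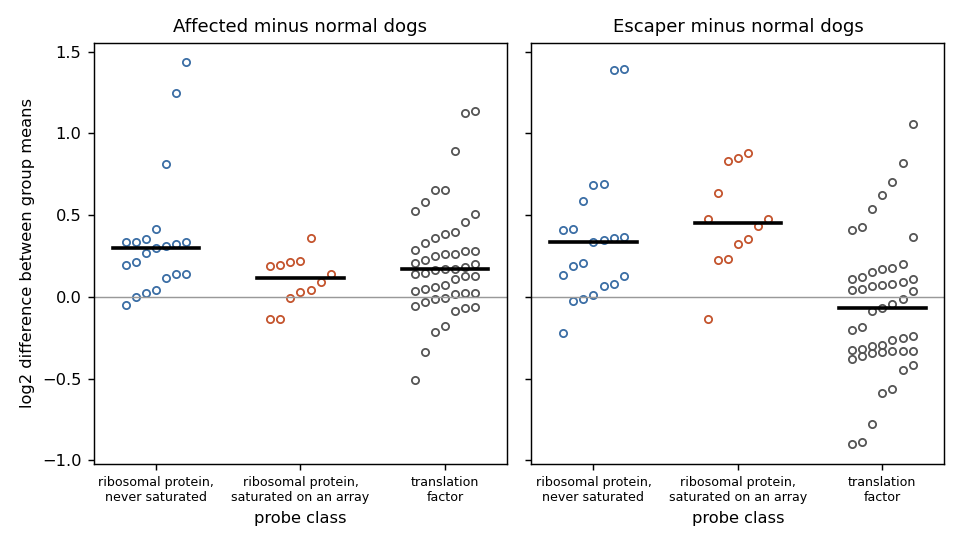
Log2 differences between group means for affected minus normal (left) and escaper minus normal dogs (right); each point is a tested probe and bars are class medians, for 21 ribosomal probes never saturated, 12 saturated on an array and 49 factors. Medians are 0.30, 0.11 and 0.17 in affected and 0.34, 0.45 and −0.07 in escaper dogs.

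Members of a class correlated with each other across dogs. The median correlation between pairs of probes over the 10 dogs was 0.34 for ribosomal proteins, 0.58 within the small subunit and 0.28 within the large one. It was 0.41 for factors, 0.59 within eIF3 and 0.21 within eIF4, and −0.00 over all probes. The points share arrays, reference and 2 dogs that stood apart, so these figures only describe the 10 dogs.

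Some ribosomal and elongation genes lacked a rule name on this array and were found by description or updated symbol only. Of 54 such ribosomal protein probes, 41 were tested. Some of the 54 carry the symbol of another gene, such as PLXDC1 (described as L23), CRACDL (L19) and ARL6IP1 (S15a). Not every probe of this list need therefore measure a ribosomal protein. The median difference of the 41 was 0.11 in affected dogs with 27 positive (65.9%), and 0.23 in escapers with 28 positive (68.3%). The 9 tested factor probes had medians of 0.06 and −0.24. RPL3 and elongation factor 1-alpha, given next, had the highest difference of their lists in both comparisons. RPL3, a core protein of the large subunit, was at −2.74, −2.67, −2.55 and −3.02 in normal, 0.28, −1.62, −1.62 and −0.38 in affected and −1.72 and 1.32 in escaper dogs (chr10:28812271-28812330, plus strand, saturated on 9 arrays). A probe described as elongation factor 1-alpha (chr11:15974234-15974292, plus strand) was at −2.79, −2.83, −2.68 and −3.04 in normal, −0.56, −1.88, −1.51 and −1.0 in affected and −1.82 and 0.76 in escaper dogs. In both genes each dystrophic dog lay above each normal dog by a wide margin. Affected differences were 1.91 (SE 0.63, limma adjusted p = 0.30) and 1.60 (SE 0.49, adjusted p = 0.27). A two-sided exact permutation test of 4 against 4 dogs gave p = 0.0286 for each, the smallest p that 70 arrangements allow. Without affected 1 the differences were 1.54 and 1.37. RPL3 passed with all arrays and the dog as a random block (limma adjusted p = 0.029), as 314 of all probes did, and elongation factor 1-alpha did not (0.0526). The latter passed when only the 2 groups compared were fitted (limma adjusted p = 0.044), as 113 of all probes did in place of 3. Escaper differences were 2.55 and 2.31, and without escaper 2 they were 1.03 and 1.02. Both passed with the dog as a random block (limma adjusted p = 0.016 and 0.019) and with slides blocked instead (0.0498 and 0.047). In those fits 911 of 14633 and 522 of 16008 probes passed, in place of 0 in the main fit. Slide and escaper group cannot be told apart in the slide fit.

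The muscle forms of these proteins had differences of the other sign. Both probes of the L3-like protein, RPL3L, a form found in heart and skeletal muscle, differed by −0.46 and −0.45 in affected dogs (two-sided exact permutation p = 0.314 and 0.371). Without affected 1 both probes differed by less, −0.21 and −0.11. They stood at −2.90 and −2.52 in escaper 2 and at 0.67 and 0.73 in escaper 1, so the escaper differences of −1.28 and −1.24 turned to 0.50 and 0.39 without escaper 2. EEF1A2, the elongation factor 1-alpha of muscle and nerve, differed by −0.55 in affected (exact permutation p = 0.114) and −1.08 in escaper dogs, or −0.27 without escaper 2. Its affected difference was −0.35 without affected 1. Over the 6 exact tests run, the sixth on a dim probe of LOC487375 (difference −0.12, exact permutation p = 0.171), Benjamini-Hochberg adjustment gave 0.0857 for RPL3 and for elongation factor 1-alpha and 0.229 to 0.371 for the others. RPLP0, RPS6, EEF2K, EIF2AK3 and EIF4G1 had no probe under those names, and RPSA was well above background on 0 arrays at its 2 probes.

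Genes that build or regulate ribosomes were read from lists. Of 41 ribosome biogenesis genes, 22 were tested and 18 had a positive affected difference, with a median of 0.36, but 13 with a median of 0.08 without affected 1. None passed by limma, while 5 were higher and 0 lower at an unadjusted p under 0.05 (5.06% and 7.38% of all probes). No overlap, with affected dogs on the higher side, was found for 4 genes (5.28% of all probes), POLR1E, a subunit of RNA polymerase I (0.70, limma adjusted p = 0.22), NOP2, a ribosomal RNA methylase (0.80, adjusted p = 0.26), and the nucleolar proteins FBL (0.41) and NOP56 (0.80). Without affected 1 these were 0.56, 0.62, 0.39 and 0.41. Biogenesis had a median of 0.31 in affected 1, −0.58 to −0.36 in affected 2 to 4 and −0.65 to −0.60 in normal dogs, and the escaper difference had a median of 0.02, or −0.04 without escaper 2. In the mTOR and S6 kinase list 17 of 36 genes were tested, with medians of −0.11 in affected and −0.21 in escaper dogs and 0 past the threshold. These were −0.17 without affected 1 and −0.06 without escaper 2. At an unadjusted p under 0.05, 1 gene was higher and 1 lower in affected dogs, and 1 was higher and 2 were lower in escapers (9.67% and 8.78% of all probes). RHEB, the GTPase that switches mTOR on, differed by −0.22 in affected and −0.81 in escaper dogs (−0.43 without escaper 2), with both escapers below all normal dogs. Other translation factors (18 of 25 tested) had medians of 0.07 and −0.21, and transfer RNA synthetases (15 of 23) of 0.10 and −0.18, and none passed. Without affected 1 and escaper 2 in turn, the former had −0.12 and −0.01 and the latter −0.09 and −0.09.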

How the data were processed

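Intensity values of both channels, with local background, were extracted by the authors' scanner software (Agilent Feature Extraction, version 9.5.3.1 per the file headers). A deposited table of log2 ratios, equal to dog over reference in processed signal (r = 1), served as an alternative. Here, signals were corrected with normexp (offset 50) and loess in limma 3.58.1 (R 4.3.3), with control spots at weight 0, outlier spots dropped and saturated spots kept, and the dye-swapped arrays of each dog were averaged. Probes well above background on both arrays of at least 2 dogs (16130), with a value in every dog (16008), entered 1 limma fit of the 3 groups, with Benjamini-Hochberg adjustment and a threshold of 0.05. The p-values measure spread between these dogs. The array files or a RefSeq gene table named 11784 of 42034 probes. Members and gene lists were chosen with earlier results of these data known. Named genes were those with the smallest p in each comparison and class (up to 6 each way) and 16 genes of known role; others were named after their values were seen. The fit was tested on simulated data. Results of some members are not reported here.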

Additional observations from a re-analysis of the deposited data

Results flagged for a closer look

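By chance alone, Dixon's test marks about 1 in 20 of independent groups. The groups here are genes in the same dogs, so their number cannot be set against that rate. In 12 of 138 groups of 4 dogs, the highest or lowest dog lay outside Dixon's critical value. Affected 1 was the far dog in 6 of them, each time as the highest: EIF3B at 0.90 (others −0.78 to −0.66), EIF2C2 at 1.16 (others −1.05 to −0.86), EIF4A3 at 0.55 (others −0.30 to −0.18), EIF4G3 at 0.16 (others −0.70 to −0.58), EIF1AX at 1.01 (others −0.67 to −0.51) and EIF2B5 at 0.57 (others −0.83 to −0.61). Normal 4 was far in EIF4A3 (−2.99, others −0.64 to −0.43), EIF5B (0.15, others −0.13 to −0.10) and EIF4EBP2 (0.16, others 0.04 to 0.06). The remaining ones were EIF2C2 in normal 1 (−0.50, others −1.69 to −1.49), EIF4EBP2 in affected 2 (−0.055, others 0.01) and RPL28 in affected 4 (−0.43, others −0.08 to −0.04). All values are log2 ratios of dog over reference, and their causes were not tested.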

How the results depend on the processing

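Depth is not counted on arrays: saturation above and background below limit these values, and the number of dogs, 10, limits their precision. No paired analysis was possible because replicate numbers only name dogs and arrays of a dog were averaged. Alternatives were processed signals, the deposited table, median centring, an offset of 10, no filter or one of 4 dogs, the slide or dog as a random block, trend and robust variance, the compared groups alone, 1 probe per gene, saturated spots left out, and each dog left out. Of values for named genes, 1810 kept direction and side of the threshold, 23 passed it newly and 61 changed sign.

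Members past the threshold numbered 1 in escaper against normal dogs with the slide as a random block (522 of 16008 probes in all passed) and 1 of 67 in affected against normal dogs with all arrays and the dog as a block (314 of 14633). With median centring the escaper minus normal median was −0.19 for ribosomal proteins and −0.45 for factors, and the escaper minus affected median −0.26 and −0.57. Over all probes the medians of these comparisons were −0.17 and −0.18. The changes of sign given next are not taken relative to that shift. Median centring also turned escaper minus normal of RPS9 (−0.37), RPL35 (−0.36), RPS3 (−0.040), RPS16 (−0.19), EIF4G2 (−0.78), EIF5 (−0.16) and EEF2 (−0.51). It turned escaper minus affected of RPS9 (−0.37), RPL35 (−0.33), RPS16 (−0.11), EIF4G2 (−0.60), EIF5 (−0.24), EIF3K (−0.31) and EIF2B3 (−0.10), and affected minus normal of RPL17 (0.0017). Processed signals and the deposited table turned RPS29 (0.050) and EIF5A (−0.095) in affected minus normal, RPL7 (0.025) in escaper minus normal and EIF2C4 (−0.34) in escaper minus affected dogs. An offset of 10 turned RPS29 (0.0093) and RPL17 (0.0041) in affected minus normal dogs. The cause of these changes was not tested.

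Leaving out each dog in turn, 0 members passed in affected against normal dogs, 0 to 11 in escaper against normal and 0 to 2 in escaper against affected dogs, the highest without escaper 1 each time, when 3920 and 1755 of all probes passed. Affected minus normal medians ran from 0.17 to 0.25 for ribosomal proteins and −0.0026 to 0.23 for factors. Escaper minus normal medians ran from 0.21 to 0.53 and −0.31 to 0.06, and escaper minus affected from −0.11 to 0.42 and −0.46 to −0.06. Affected minus normal ranges that crossed 0 were those of RPLP1 (−0.12 to 0.044), RPS29 (−0.16 to 0.14), RPL17 (−0.070 to 0.057), EIF2B3 (−0.13 to 0.032), EIF2B1 (−0.28 to 0.048), EIF5A (−0.046 to 0.060), EIF2S1 (−0.14 to 0.19) and EIF4E (−0.12 to 0.17). For escaper minus normal they were RPL24 (−0.30 to 0.029), RPL7 (−0.32 to 0.26), RPL36 (−0.12 to 0.10), EIF5 (−0.00052 to 0.82), EEF2 (−0.067 to 0.12), EIF4EBP1 (−1.45 to 0.32) and the L3-like gene (−3.07 to 0.50 and −2.86 to 0.39). For escaper minus affected they were EIF2B3 (−0.031 to 0.30), RPL7 (−0.46 to 0.12), EIF5 (−0.23 to 0.59), RPL7L1 (−0.32 to 0.018) and EIF2C4 (−0.025 to 0.20).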
